A study of Mus musculus with 4 samples.

Results

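Ccn1, Ccn2, Ankrd1, Amotl2 and Lats2 are 5 genes that the co-activators YAP and TAZ are known to turn on, and their transcripts were followed in single-cell RNA sequencing of mouse muscle stem cells and the cells derived from them. The 5 were taken by symbol from 25804 symbols in the files, where their identifiers are ENSMUSG00000028195 (Ccn1), ENSMUSG00000019997 (Ccn2), ENSMUSG00000024803 (Ankrd1), ENSMUSG00000032531 (Amotl2) and ENSMUSG00000021959 (Lats2). All 5 were detected in all 4 libraries. They were chosen by their measured levels in these same libraries, so those levels are given as a description. Every cell came from mice or cultures of the Pax7-nGFP genotype, a reporter in which the promoter of Pax7, the transcription factor of muscle stem cells (satellite cells), drives a nuclear green fluorescent protein (GFP).

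There were 4 groups with 1 library each. Myogenic progenitor cells (MPC) came from a 16-week-old male, spent 2 passages as myoblasts and then 5 passages in a medium with 5 μM Forskolin, which raises cyclic AMP, 5 μM Repsox, which blocks the TGF-beta receptor, and 3 μM of a CHIR compound (spelled CHIR9901), an inhibitor of the kinase GSK3. Myoblasts came from a 16-week-old male and were taken at passage 2 in a myoblast medium without these 3 agents. Both media held basic fibroblast growth factor, they also differed in base and serum, and neither culture is labelled as sorted. For activated satellite cells (ASC), 17 tibialis anterior muscles of male and female mice aged 18 to 24 weeks were taken 3 days after an injection of 10 μM cardiotoxin, a toxin that kills muscle fibres, and the GFP-positive cells were sorted. For freshly isolated satellite cells (fiSC), limb muscles of 3 males aged 13 weeks were pooled and sorted in the same way for GFP. The comparisons of ASC, myoblast and MPC with fiSC share the fiSC library, and those of myoblast and MPC with ASC share the ASC library. Age, sex, muscle, sorting and culture differ between the groups together and cannot be told apart.

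YAP and TAZ (the gene Wwtr1) carry no DNA-binding domain and act in the nucleus through the TEAD transcription factors. The Hippo kinases, of which LATS1 and LATS2 act on YAP directly, phosphorylate YAP and TAZ and keep them in the cytoplasm, and spreading of the cell, a stiff substrate and actin tension favour the nuclear form. In muscle, YAP is known to promote proliferation of activated satellite cells and to be lowered in activity as myoblasts differentiate. Ccn1 (also Cyr61) and Ccn2 (also Ctgf) encode secreted matricellular proteins that bind integrins. Ankrd1 encodes an ankyrin repeat protein of striated muscle that is found in the nucleus and at titin in the sarcomere. Amotl2, an angiomotin-family scaffold that binds YAP, and the kinase Lats2 restrain YAP and are themselves its targets, which makes a negative feedback. All 5 also answer to other inputs, among them serum and TGF-beta for Ccn1 and Ccn2 and muscle differentiation for Ankrd1.

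The bases in front of the start sites are shown because TEAD proteins bind a short element there in several YAP targets. Promoter windows of 250 bases upstream of the RefSeq start, in the build GRCm38.p6, were matched by symbol for 4 of the 5 genes (5 windows, 2 of them of Lats2). This is another build than that of the files, which hold no coordinates. The windows were searched on both strands for the TEAD element CATTCC, which on the other strand of the double helix is read as GGAATG. The sequences below run 5′ to 3′ on the gene's strand, from 250 bases upstream to the base before the start, and capitals mark the TEAD element. They lie at chr3:145649986-145650235 on the minus strand (Ccn1), chr19:36119845-36120094 on the minus strand (Ankrd1) and chr9:102717554-102717803 on the plus strand (Amotl2).
Ccn1: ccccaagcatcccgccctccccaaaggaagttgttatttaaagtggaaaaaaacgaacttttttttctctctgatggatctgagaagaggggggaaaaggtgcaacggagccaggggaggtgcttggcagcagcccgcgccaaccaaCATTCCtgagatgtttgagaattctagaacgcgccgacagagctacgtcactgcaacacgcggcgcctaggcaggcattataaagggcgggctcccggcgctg
Ankrd1: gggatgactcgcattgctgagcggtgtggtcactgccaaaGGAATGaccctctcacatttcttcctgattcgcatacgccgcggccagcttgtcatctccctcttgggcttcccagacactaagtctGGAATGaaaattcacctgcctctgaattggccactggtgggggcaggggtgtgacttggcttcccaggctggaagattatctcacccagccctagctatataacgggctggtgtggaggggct
Amotl2: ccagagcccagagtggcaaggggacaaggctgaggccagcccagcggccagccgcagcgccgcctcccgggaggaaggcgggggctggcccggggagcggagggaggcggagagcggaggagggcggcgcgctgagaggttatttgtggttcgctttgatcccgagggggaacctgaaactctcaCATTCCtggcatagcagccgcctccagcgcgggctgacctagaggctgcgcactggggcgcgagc
The element starts 103 bases before the start in Ccn1, 210 and 123 bases before it in Ankrd1 and 65 bases before it in Amotl2, and neither Lats2 window holds it. The same 6 letters occur in 12.6% of the 32817 windows of this length in the table (4148 windows), so a match is common and describes these letters only. The core of the cyclic AMP response element, TGACG, occurs in 17.8% of all windows, 58 bases before the start in Ccn1 on the reverse strand and 28 and 6 bases before it in 1 of the Lats2 windows. No member window held the AP-1 element TGANTCA (6.75% of all windows) or a CArG box (1.47%), the element of serum response factor.

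After filtering, 9096 MPC, 2365 myoblast, 6446 ASC and 2192 fiSC cells remained, with 135956672, 55139531, 179085373 and 20031950 unique molecular identifiers (UMIs, 1 per captured transcript). The median cell had 13236, 22911, 19810.5 and 8769 UMIs in that order. Any 2 libraries shared between 2 and 18 cell barcodes. Levels are UMIs summed over cells and given as CPM (counts scaled to the same library total), with exact Poisson 95% intervals that cover counting error only. With 1 library per group there is no spread between replicates and no test, so a difference was read by a size rule, at least 2-fold between values of CPM + 5 and a minimum of 10 CPM for the higher of the 2. Clusters were named from marker genes, and 5182 MPC (57.0%), 1729 myoblast (73.1%), 2062 ASC (32.0%) and 2129 fiSC cells (97.1%) were myogenic progenitor-like. At a finer clustering 37.3% of the MPC and 37.6% of the ASC cells took that name. The ASC share was 41.3% at a coarser clustering and 27.1% with doublets kept. The ASC library departs from its label: although sorted for GFP, 48.4% of its cells (3123) were macrophage-like. Sums over all ASC cells are therefore given beside sums over progenitor-like cells, which carried macrophage transcripts at a low level (Lyz2, a lysozyme of macrophages, had 97.0 CPM in progenitor-like and 14581 CPM in macrophage-like ASC cells).

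Ccn1 and Ccn2, the secreted proteins, were highest in fiSC. Over all cells Ccn1 had 39.5 CPM in MPC (interval 38.5–40.6), 70.8 CPM in myoblasts (68.6–73.1), 37.6 CPM in ASC (36.7–38.5) and 489 CPM in fiSC (480–499). The 2 lowest libraries, ASC and MPC, lay next to each other with intervals that did not overlap but met at 38.5 when rounded. In progenitor-like cells Ccn1 had 48.1 CPM in MPC (46.6–49.7), 77.4 CPM in myoblasts (74.9–80.1), 58.0 CPM in ASC (56.5–59.6) and 496 CPM in fiSC (486–506), so that MPC and ASC changed places. The progenitor-like level was 7.95-fold lower in ASC, 6.08-fold lower in myoblasts and 9.43-fold lower in MPC than in fiSC. Ccn1 did not meet the size rule in any comparison among ASC, myoblast and MPC, in all cells or in progenitor-like cells. The largest progenitor-like difference among these 3 was that of MPC against myoblasts, a 1.55-fold lower level (log2 ratio −0.63).

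Ccn2 differed most between the libraries. It had 0.50 CPM in MPC (68 UMIs, 0.388–0.634), 15.4 CPM in myoblasts (847 UMIs, 14.3–16.4), 0.475 CPM in ASC (85 UMIs, 0.379–0.587) and 272 CPM in fiSC (5455 UMIs, 265–280). MPC and ASC had overlapping intervals, both far under the other 2 libraries. In progenitor-like cells the level was 0.224 CPM in MPC (17 UMIs), 8.15 CPM in myoblasts (355 UMIs), 0.287 CPM in ASC (27 UMIs) and 271 CPM in fiSC (5152 UMIs). On the CPM + 5 scale this was 52.2-fold lower in ASC, 21.0-fold lower in myoblasts and 52.8-fold lower in MPC than in fiSC, and the added 5 CPM holds down these folds. In ASC and myoblasts a few cells of other types held most of the remaining transcripts. In ASC 12 fibroblast-like cells had 52 of the 85 Ccn2 UMIs (61.2%). In myoblasts 1 unnamed cluster of 34 cells, with Col1a2 among its leading genes, had 451 of the 847 Ccn2 UMIs. In MPC 33 of the 68 Ccn2 UMIs were in the 1295 differentiating muscle-like cells, and 14 in 384 fibroblast-like cells.

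Ankrd1 was highest in the myoblast culture. Over all cells it had 258.6 CPM in MPC (256–261), 2186 CPM in myoblasts (2174–2198), 244 CPM in ASC (242–246) and 565 CPM in fiSC (555–575). Its level was thus close in MPC and ASC, the only pair within 1.5-fold. In progenitor-like cells the same pair stood apart, with 38.5 CPM in MPC (37.2–40.0), 2243 CPM in myoblasts (2229–2257), 363 CPM in ASC (360–367) and 585 CPM in fiSC (574–596). Progenitor-like MPC were 51.6-fold lower than myoblasts, 8.46-fold lower than ASC and 13.6-fold lower than fiSC, and myoblasts were 6.10-fold higher than ASC and 3.81-fold higher than fiSC. Between progenitor-like ASC and fiSC Ankrd1 was 1.60-fold lower, under the size rule. Over all cells the ASC level was 2.29-fold lower than that of fiSC (log2 ratio −1.19), and this call was lost at −0.94 when libraries were scaled by trimmed means (TMM).

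Most of the MPC value over all cells came from differentiating cells. The differentiating muscle-like cells of MPC (1295 cells, 14.2%) had 1437 CPM of Ankrd1 and held 85.8% of the library's Ankrd1 UMIs with 15.4% of its total UMIs. In single MPC clusters Ankrd1 had 39.3, 32.3 and 46.2 CPM in the 3 progenitor-like clusters, against 1689, 139, 2860 and 1747 CPM in the 4 differentiating ones. In the myoblast culture no such contrast was seen: the 4 progenitor-like clusters had 1882 to 2690 CPM and the 2 differentiating clusters 2168 and 3125 CPM. A stricter cell filter turned the all-cell MPC over ASC log2 ratio of Ankrd1 round to −1.28, against 0.08 with the filter used. It raised the minima to 2000 UMIs and 1000 genes and lowered the mitochondrial limit to 5%. Among the differentiating MPC clusters, cluster 5 had a median mitochondrial share of 6.53% and cluster 9 a median depth of 1688 UMIs. The part of each limit in the turn was not tested.

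**Figure D1:**
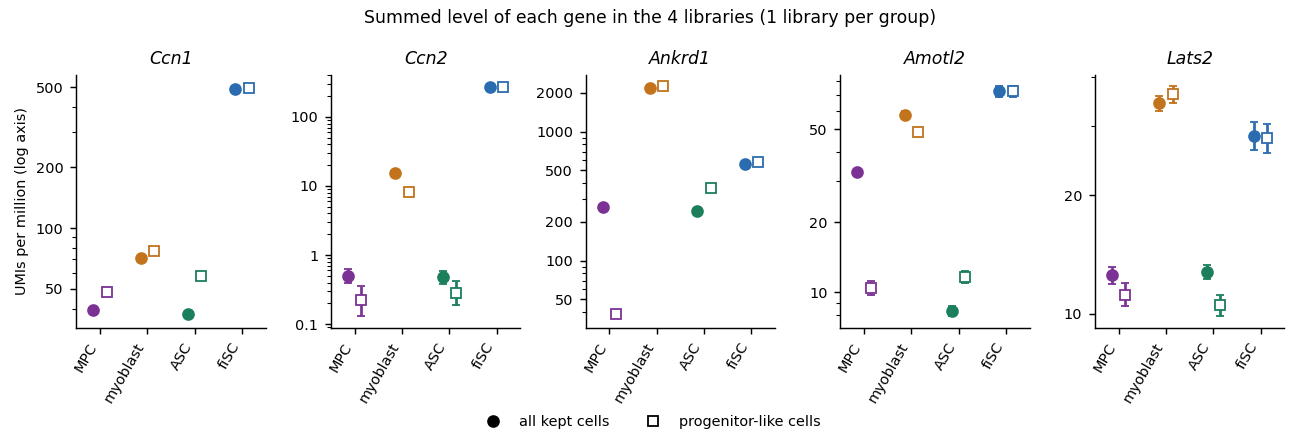
Summed level of each gene in CPM (log axes that differ between panels) in MPC, myoblast, ASC and fiSC, over all kept cells (filled circles) and progenitor-like cells (open squares), with exact Poisson 95% intervals. Ccn1 and Ccn2 stand highest in fiSC and Ankrd1 in myoblasts at 2186 CPM, and Ankrd1 in MPC differs between all cells (258.6 CPM) and progenitor-like cells (38.5 CPM).

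Amotl2 and Lats2, the feedback inhibitors, were higher in myoblasts and fiSC than in MPC and ASC when progenitor-like cells were compared. Amotl2 had 10.4 CPM in MPC (9.73–11.2), 48.6 CPM in myoblasts (46.6–50.8), 11.7 CPM in ASC (11.0–12.4) and 72.5 CPM in fiSC (68.7–76.4). The MPC and ASC intervals overlapped. It was 4.65-fold lower in ASC and 5.02-fold lower in MPC than in fiSC, 3.22-fold higher in myoblasts than in ASC and 3.47-fold lower in MPC than in myoblasts. Over all cells Amotl2 had 32.9 CPM in MPC, 57.6 CPM in myoblasts, 8.34 CPM in ASC and 72.6 CPM in fiSC, and the differentiating MPC cells, at 99.3 CPM, held 46.6% of that library's Amotl2 UMIs.

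Lats2 had 11.2 CPM in progenitor-like MPC (10.4–12.0), 36.1 CPM in myoblasts (34.3–37.9), 10.5 CPM in ASC (9.87–11.2) and 28.0 CPM in fiSC (25.6–30.5). The MPC and ASC intervals overlapped here too. The level in myoblasts was 2.65-fold higher than in ASC, and that in MPC was 2.54-fold lower than in myoblasts. Against fiSC, ASC was 2.12-fold lower and MPC 2.04-fold lower, close to the 2-fold limit, and both calls were lost when cells rather than UMIs were given equal weight (log2 ratios −0.98 and −0.998). Over all cells the size rule was not met for Lats2 in ASC (log2 ratio −0.91) or MPC (−0.93) against fiSC.

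Set against all genes, the members were called as follows in progenitor-like cells. In ASC against fiSC 4 of the 5 were lower and none was higher (Ankrd1 was the one not called), where 23.9% of all measured genes were lower and 24.2% higher. In MPC against fiSC all 5 were lower, against 16.1% of genes (29.4% were higher). In myoblasts against fiSC Ccn1 and Ccn2 were lower, against 17.3% of genes, and Ankrd1 was higher, against 28.9%. In myoblasts against ASC Ankrd1, Amotl2 and Lats2 were higher, against 14.4% of genes, and none was lower, against 4.65%. In MPC against ASC Ankrd1 was lower, against 7.09% of genes, and no member was higher, against 18.6%. In MPC against myoblasts Ankrd1, Amotl2 and Lats2 were lower, against 7.75% of genes, none was higher, against 7.65%, and Ccn2, with 17 UMIs in MPC and 355 in myoblasts, stayed under the 10 CPM minimum. These contrasts served in the choice of the genes, so the counts are a description.

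Over all kept cells the counts differed in places. In ASC against fiSC Ccn1, Ccn2, Ankrd1 and Amotl2 were lower and none was higher (21.1% and 24.6% of all genes), and in MPC against fiSC the same 4 were lower and none was higher (15.8% and 27.9%). In this last comparison Ankrd1 and Amotl2 were no longer called without fiSC cluster 4 (log2 ratios −0.83 and −0.26) or with all barcodes (−0.96 and −0.995), and in ASC against fiSC Ankrd1 was not called without that cluster (−0.91). In myoblasts against fiSC Ccn1 and Ccn2 were lower (17.8%) and Ankrd1 higher (27.7%). In myoblasts against ASC Ccn2, Ankrd1, Amotl2 and Lats2 were higher and none was lower (14.4% and 9.43%), and in MPC against myoblasts Ccn2, Ankrd1 and Lats2 were lower and none was higher (6.44% and 6.85%). In MPC against ASC Amotl2 was the single member called, 2.84-fold higher (17.6% of genes were higher and 10.5% lower), while in progenitor-like cells its log2 ratio was −0.11. These backgrounds move with the scaling. Under TMM 2859 genes were higher and 1604 lower in ASC than in fiSC, against 2294 and 1965 with the totals used here. In MPC against ASC the split was 1131 higher and 1580 lower, against 1711 and 1022, and in myoblasts against ASC 1004 and 1274, against 1365 and 895. With DESeq2 size factors the split for MPC against fiSC was 1933 higher and 2017 lower, against 2710 and 1533.

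The share of cells with a transcript was compared after each progenitor-like cell was thinned to 5000 UMIs, which left 4995 MPC, 1720 myoblast, 2005 ASC and 1770 fiSC cells and left out 187, 9, 57 and 359 shallower ones. Ankrd1 was seen in 13.6% of MPC, 97.0% of myoblasts, 65.9% of ASC and 50.4% of fiSC cells. The order of ASC and fiSC was thus the reverse of the order of their summed levels, and no order is read from these shares. At 2000 UMIs per cell, the depth planned first, the shares were 5.84, 90.8, 43.0 and 34.4%. Before thinning they were 27.7, 99.3, 93.6 and 56.4% in the same order. Ccn1 was seen in 16.6% of MPC, 28.3% of myoblasts, 23.6% of ASC and 39.7% of fiSC cells, against 31.0, 69.7, 61.2 and 45.1% before thinning. Ccn2 was seen in 4 of 4995 MPC cells, 3.72% of myoblasts, 4 of 2005 ASC cells and 321 of 1770 fiSC cells (18.1%), and before thinning in 0.251, 12.4, 0.873 and 20.8%. At 2000 UMIs the shares of Ccn2 were 0.0194, 1.56, 0.0487 and 12.9%. Amotl2 was seen in 3.82% of MPC, 20.0% of myoblasts, 5.89% of ASC and 19.6% of fiSC cells, and Lats2 in 5.15, 15.5, 4.69 and 12.0%. Before thinning the shares for Amotl2 were 11.5, 61.1, 32.8 and 26.6% and for Lats2 13.99, 52.9, 35.1 and 19.3%.

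**Figure D2:**
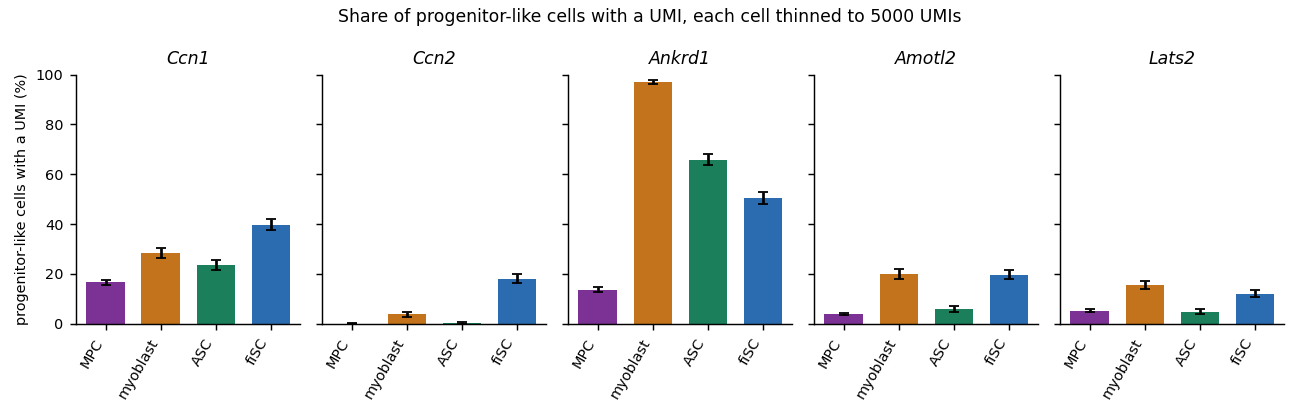
Percent of progenitor-like cells with at least 1 UMI of each gene after thinning to 5000 UMIs per cell, for MPC, myoblast, ASC and fiSC, with exact binomial 95% intervals. Ankrd1 was seen in 97.0% of myoblasts and 13.6% of MPC cells, and Ccn2 in 18.1% of fiSC cells and under 4% of the cells of the other 3 libraries.

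A large part of the transcripts of several members came from few cells. At 5000 UMIs the 5% of progenitor-like fiSC cells with the most Ccn2 UMIs held 72.3% of them, and the matching 5% held 48.3% of the Ccn1, 44.1% of the Ankrd1 and 52.0% of the Amotl2 UMIs. A fiSC cell with Ccn2 carried 7.38 UMIs on average and at most 63. The top 5% of cells held 52.0% of the Ccn1 and 54.8% of the Ankrd1 UMIs in MPC, 32.1% and 13.3% in myoblasts, and 45.8% and 25.6% in ASC. Where a gene is seen in few cells, as Amotl2 in MPC and ASC, this share is high by construction. The same limit bears on Ccn1 and Ankrd1 in MPC. They were seen in 16.6% and 13.6% of the cells there, with 1.45 and 1.40 UMIs on average in a cell that had them. Amotl2 was seen more often in fiSC cells with Ccn1 than in those without, although most cells with Ccn1 had no Amotl2 UMI: it was seen in 212 of 703 cells with Ccn1 (30.2%) and in 135 of 1067 without (12.7%). Ankrd1 was seen in 58.2% of the fiSC cells with Ccn1 and 45.3% of those without. Ccn1 was seen in 48.9% of the fiSC cells with Ccn2 and 37.7% of those without, while the shares were closer for Ankrd1 (51.7% and 50.1%) and Amotl2 (20.9% and 19.3%). These shares pool unlike fiSC clusters, and none was taken within a cluster. Before thinning Ccn1 was seen in 32.3, 36.8, 53.8 and 68.4% of the cells of fiSC clusters 1 to 4. The matching Amotl2 shares were 12.1, 19.7, 31.0 and 56.7%. None of the 5 genes was seen in 3347 of 4995 MPC, 35 of 1720 myoblast, 566 of 2005 ASC and 403 of 1770 fiSC cells.

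The 4 progenitor-like clusters of fiSC carried the genes unequally, and Ccn2 did not follow the other members. Ccn1 had 207, 223, 422 and 1453 CPM in clusters 1 to 4, Ankrd1 239, 444, 830 and 1035 CPM, and Amotl2 19.4, 37.3, 62.4 and 223 CPM. All 3 were thus highest in cluster 4. Ccn2 had 430, 159, 229 and 209 CPM, highest in cluster 1, and Lats2 lay between 20.6 and 37.2 CPM. In the same clusters the immediate early gene Fos had 235, 286, 2544 and 6395 CPM, the heat shock gene Hspa1a 402, 604, 7028 and 16156 CPM, Pax7 401, 607, 998 and 1669 CPM, and the myogenic factor Myod1 626, 859, 254 and 92.7 CPM. The part of these immediate early and heat shock transcripts in the fiSC levels was not tested. Without cluster 4 the progenitor-like log2 ratio of ASC over fiSC was −2.16 for Ccn1, against −2.99 with it, and −1.37 for Amotl2, against −2.22. For MPC over fiSC the ratios without the cluster were −2.41 and −1.48, and that of Lats2, at −0.99, no longer met the size rule.

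In ASC the progenitor-like cells lay in clusters 2, 6 and 7. Ccn1 had 63.0, 35.2 and 93.7 CPM there, Ankrd1 403, 285 and 177 CPM, and Amotl2 13.7, 6.47 and 7.37 CPM. Ccn1 was thus highest and Ankrd1 lowest in cluster 7. Unnamed cluster 4, led by the differentiation genes Myog and Ttn, had 31.6 CPM of Ccn1 and 267 CPM of Ankrd1. In macrophage-like cells the level of Ankrd1 was 2.73% of that in progenitor-like cells, that of Ccn1 4.11% and that of Amotl2 8.18%. The muscle genes Pax7, Myod1, Des and Cdh15 stood at 2.98, 3.33, 3.81 and 3.94% there and Myog at 9.95%. Ankrd1 and Ccn1 were thus below or close to Pax7, Myod1, Des and Cdh15, and their values there are read as background. Amotl2, with 48 UMIs in macrophage-like cells, lay above those muscle genes and below Myog only. Of the ASC Myog UMIs, 65.7% were in unnamed cells. Whether the Amotl2 value is background was not tested. Ccn2 had no UMI in macrophage-like cells. Lats2 was higher in macrophage-like cells, with 10.5 CPM in progenitor-like cells and 17.8 CPM in macrophage-like cells (894 UMIs). Its all-cell ASC value (12.8 CPM) thus mixes 2 cell types.

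The pathway genes upstream of the members were read from lists, chosen with earlier results of these data known. List counts between libraries are for progenitor-like cells, and the shares of all genes called in each comparison are those given above for the members. Of the co-activators, Yap1 had 58.5 CPM in progenitor-like MPC, 46.9 CPM in myoblasts, 34.3 CPM in ASC and 121 CPM in fiSC. Wwtr1 had 146, 137, 86.9 and 417 CPM in the same order. Both were highest in fiSC and lowest in ASC. The TEAD factors differed in kind: Tead1 had 420, 394, 168 and 431 CPM and Tead3 11.2, 7.16, 6.22 and 42.1 CPM, while Tead2 had 58.4, 73.5, 48.9 and 3.73 CPM and Tead4, a factor of the myogenic programme, 6.24, 20.4, 25.3 and 0.210 CPM. Tead2 and Tead4 were thus lowest in fiSC, and the other 2 lowest in ASC. Of 9 measured co-activators, TEAD and Vgll genes (TEAD co-factors) 7 were lower in ASC than in fiSC and 2 higher, with a median log2 ratio of −1.68, beside 0.01 over all 8972 measured genes. Vgll3 had 24.6 CPM in ASC and 329 CPM in fiSC, and Vgll2 72.0 and 261 CPM. In MPC against myoblasts 2 of the 9 were lower and none was higher, with a median of 0.09.

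Among the other upstream genes, Lats1 had 32.7 CPM in MPC, 32.3 CPM in myoblasts, 26.6 CPM in ASC and 67.4 CPM in fiSC, and Amot, a relative of Amotl2, 11.1, 14.1, 8.16 and 24.7 CPM. Amotl1, the third angiomotin gene, was instead highest in MPC, with 122 CPM, against 59.9 CPM in myoblasts, 21.8 CPM in ASC and 28.97 CPM in fiSC. Of 21 measured Hippo kinases and scaffolds 8 were lower and 2 higher in ASC than in fiSC (median −0.79), beside 23.9% and 24.2% of all genes. Among the lower ones was Frmd6, an activator of the pathway, with 56.7 CPM in ASC and 625 CPM in fiSC. In MPC against myoblasts 2 of 20 were lower and none was higher (median 0.02, beside 0.05 over all 9408 measured genes). Of all genes 7.75% were lower and 7.65% higher, so this count is near the background.

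**Figure D3:**
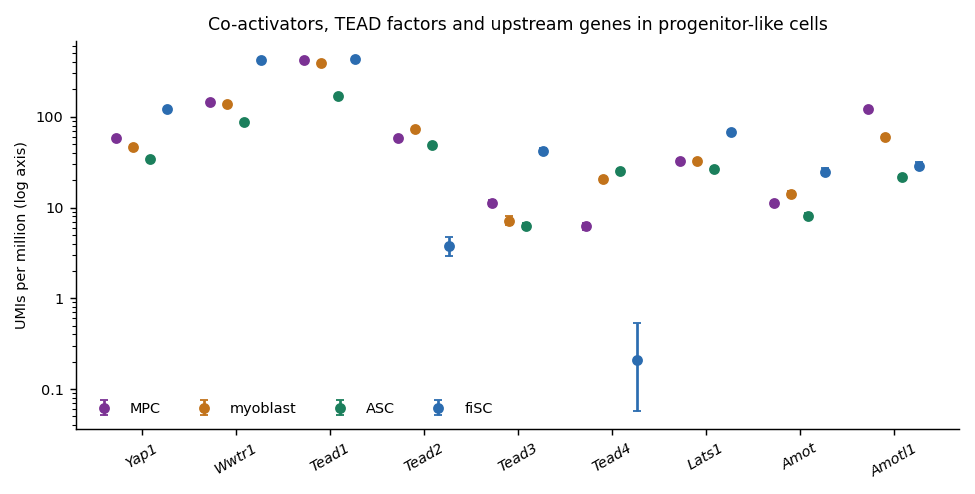
Level of co-activator, TEAD and upstream genes in progenitor-like cells of MPC, myoblast, ASC and fiSC, in CPM (log axis) with exact Poisson 95% intervals. Yap1 and Wwtr1 are highest in fiSC at 121 and 417 CPM, whereas Tead2 and Tead4 are lowest there.

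Other known YAP/TAZ targets did not all follow the 5 members. In ASC against fiSC 6 of 11 measured were lower and 3 higher in progenitor-like cells, with a median log2 ratio of −1.18. Of all genes 23.9% were lower and 24.2% higher, so the higher count is near the background. Gadd45a, a growth arrest gene, had 28.5 CPM in ASC and 604 CPM in fiSC, and the ligand gene Tgfb2 16.1 and 184 CPM. Myof, a membrane repair and fusion gene, went the other way with 142 CPM in ASC and 4.94 CPM in fiSC, as did the receptor kinase gene Axl with 123 and 44.5 CPM. In myoblasts against ASC 9 of 12 were higher and none lower (median 1.64, beside 0.21 over all 9018 genes). For MPC against ASC 7 of 12 were higher and 1 lower (median 1.36), beside 18.6% and 7.09% of all genes. Against fiSC 4 of 12 were higher and 3 lower in MPC (median 0.38), beside 29.4% and 16.1%. All 5 members were lower in that comparison. Myoblasts against fiSC had 6 of 12 higher and 2 lower (median 1.10), beside 28.9% and 17.3%. In MPC against myoblasts 4 of 12 were lower and 2 higher (median −0.34), beside 7.75% and 7.65% of all genes. Axl had 15.7 CPM in MPC and 117 CPM in myoblasts, Crim1, a membrane-bound regulator of BMP, 10.3 and 89.5 CPM, and Myof 122 and 681 CPM. Tgfb2, with 189 CPM in MPC and 18.5 CPM in myoblasts, and the binding protein gene Igfbp3, with 174 and 54.2 CPM, were higher in MPC. Ccn4, the single other CCN gene measured, had 13.1 CPM in MPC, 71.1 CPM in myoblasts, 16.8 CPM in ASC and 39.4 CPM in fiSC.

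Lists for other inputs to these genes are given beside them, and their part in the members' levels was not tested. All 19 immediate early genes were lower in each of MPC, myoblasts and ASC than in fiSC, with medians of −3.49, −3.98 and −3.52. Of the members in myoblasts against fiSC, Ankrd1 was higher and Amotl2 and Lats2 were not called. For MPC against myoblasts 6 of 18 immediate early genes were higher and 2 lower (median 0.41). Fos had 120 CPM in progenitor-like MPC, 7.07 CPM in myoblasts, 139 CPM in ASC and 1965 CPM in fiSC. Of 9 measured TGF-beta targets 6 were lower in ASC than in fiSC and none higher (median −2.32), and 8 were lower in MPC than in fiSC and none higher (median −2.60). In MPC, whose medium holds the TGF-beta receptor inhibitor, 8 of the 9 were lower than in myoblasts and none was higher (median −1.83). Among these, Pmepa1, an inhibitor of TGF-beta signalling, had 21.3 CPM in MPC and 229 CPM in myoblasts, Skil, a repressor of Smad activity, 5.62 and 109 CPM, and the matrix gene Thbs1 4.90 and 139 CPM. Serum response factor and actin genes were called lower in MPC than in myoblasts for 10 of 17, with none higher (median −1.19). They were higher in myoblasts than in ASC for 12 of 17, with none lower (median 1.32). Against fiSC 11 of 17 were higher in myoblasts and none lower (median 1.95), and 8 of 17 higher in MPC and 1 lower (median 0.63). For ASC against fiSC 4 of 15 were higher and 2 lower (median 0.36), and for MPC against ASC 5 of 17 and 1 (median 0.35). All 20 measured G2/M genes were higher in each of MPC, myoblasts and ASC than in fiSC (medians 4.26, 3.89 and 3.83).

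ASC cells that carried the members were described at 10000 UMIs per cell, which kept 1942 progenitor-like cells and left out 120. Ccn1 was seen in 648 of them (33.4%, exact binomial 95% interval 31.3–35.5), Ankrd1 in 1533 (78.9%), Amotl2 in 198 (10.2%), Lats2 in 202 (10.4%) and Ccn2 in 8 (0.412%). In the 2487 macrophage-like cells of the same depth Ccn1 was seen in 2.41%, Ankrd1 in 9.09%, Amotl2 in 1.13% and Lats2 in 15.7%, and Ccn2 in none. At 3 counts of the total, this allows up to 0.121% of cells with a Ccn2 UMI at this depth, and it does not limit the share of cells that express the gene. Before thinning the ASC progenitor-like shares were 61.2, 93.6, 32.8, 35.1 and 0.873% for the 5 genes in the order named above. Lats2 was thus seen in a larger share of macrophage-like than of progenitor-like cells. Ankrd1 had at most 44 UMIs per cell, 641 cells at 5 or more and a variance 5.88 times the mean. Ccn1 was also unevenly spread, with a median of 0 and at most 20 UMIs per cell, 73 cells at 5 or more, and a variance 3.56 times the mean, while for Lats2 the variance was 1.01 times the mean. Ankrd1 was seen in 90.7% of the cells with Ccn1 and 73.0% of those without, and Amotl2 in 13.4% and 8.58%. No cell had all 5. With Ccn2 left out of the count, 13 cells had all of Ccn1, Ankrd1, Amotl2 and Lats2, and 295 had none of these 4.

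The genes with the highest ratios in ASC cells with Ccn1 included immediate early genes and 3 heat shock genes (Hspa1a, Hspa1b and Hspb1). Cells with Ccn1 had 357 CPM of Fos and the other progenitor-like cells 87.9 CPM, 3.90-fold more on the CPM + 5 scale, and within cluster 2 alone the ratio was 4.13-fold. The heat shock genes Hspa1a and Hspb1 had 248 and 412 CPM in cells with Ccn1, against 68.5 and 142 CPM in the others. The stress and immediate early genes Atf3 and Egr1 had 118 and 114 CPM with Ccn1, against 33.0 and 36.1 CPM without. Id1, a target of BMP signalling, had 317 CPM with Ccn1 and 116.5 CPM without. The rest of the 10 highest ratios were those of Hspa1b, a near copy of Hspa1a with which it can share reads (149 CPM with Ccn1 and 38.4 CPM without), the phosphatase gene Dusp1 (52.3 and 14.2 CPM), Gadd45g (115 and 38.2 CPM) and the factor Klf2 (137 and 47.0 CPM). Of 3302 genes that reached 50 CPM in either set, 18 differed by 2-fold or more, all of them higher in cells with Ccn1. The lowest ratio was that of Ociad2, 38.4 CPM with Ccn1 and 53.8 CPM without, 1.35-fold lower. The next lowest were Cers2, Mthfd2, Pgam1, Trip13, Serpinb6a, Csnk2a1, Eci1, Eif4ebp2 and Gna11.

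By list, 13 of 17 immediate early genes were at least 1.5-fold higher in ASC cells with Ccn1 (median log2 ratio 1.03), as were 3 of 4 BMP/Id genes (median 0.87), where 119 of the 3302 genes reached that ratio and the median of all was 0.02. Those 3302 genes had at least 50 CPM in either set, whereas the lists also count genes under 50 CPM. The list shares and this background thus rest on unlike limits. Other YAP/TAZ targets reached it for 1 of 9, Tgfb2, with 29.8 CPM with Ccn1 and 14.3 CPM without (list median 0.19). None of 8 co-activator and TEAD genes, none of 16 serum response factor and actin genes and none of 20 G2/M genes did (medians 0.29, 0.05 and −0.04). Cells with Ccn1 were shallower, with a median of 41183 UMIs against 50654.5 in the others before thinning, and had a median mitochondrial share of 3.76% against 2.94%. The part of these differences in the list values was not tested. Within cluster 2 alone, 13 of 17 immediate early genes (median 1.09) and 4 of 4 BMP/Id genes (median 0.92) reached 1.5-fold. Cells share 1 library, so these are values of that library only.

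**Figure D4:**
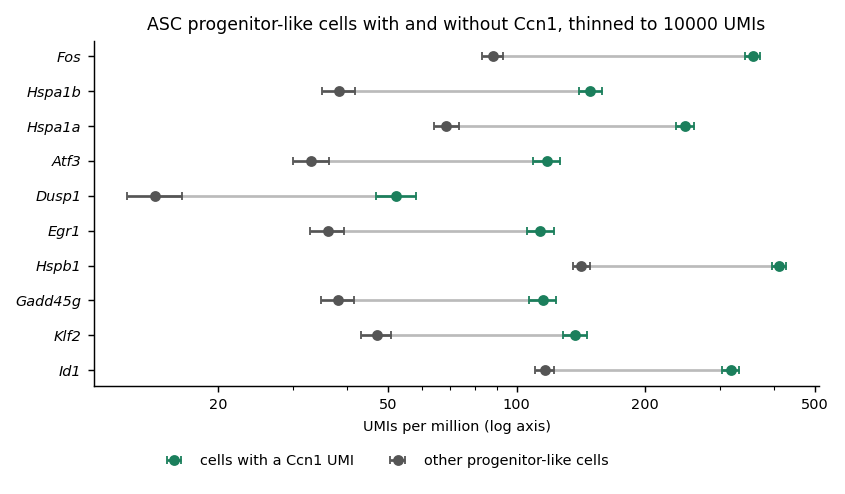
Levels of the 10 genes with the highest ratio in ASC progenitor-like cells with a Ccn1 UMI, beside the other progenitor-like ASC cells, in CPM (log axis) after thinning to 10000 UMIs, with exact Poisson 95% intervals. Fos is at 357 CPM with Ccn1 and 87.9 CPM without, and the intervals are apart for all 10 genes, which were picked for their ratio.

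Several of the same genes were high in ASC cells with Ankrd1: Hspa1a, Hspa1b, Klf2, Id1, Fos and Atf3 were among the 10 highest ratios for both Ankrd1 and Ccn1. The sets of cells overlap, since 588 of the 648 cells with Ccn1 also had Ankrd1. The shared genes are therefore not a separate observation. ASC cells with Ankrd1 had 155 CPM of Hspa1a and those without 27.6 CPM, 780 CPM of the cytoskeletal pseudokinase gene Peak1 against 248 CPM, and 89.1 CPM of Ccn1 against 25.2 CPM. Peak1 was also among the leading genes of ASC cluster 5, left unnamed for low depth (median 1146 UMIs). Cells with Ankrd1 had a median mitochondrial share of 3.28%, against 2.81% in the others. The part of this difference in the ratios was not tested. Of 3179 genes, 15 differed by 2-fold or more, 9 of them higher in cells with Ankrd1. Their lowest ratios, among them those of Mgp, Rora, Capn6, Cdkn1c and Itm2a, between 2.10-fold and 2.34-fold lower, were not seen within cluster 2, where the log2 ratios were 0.11, 0.23, −0.10, 0.66 and −0.02. Cluster 7 held 6.46% of the cells with Ankrd1 and 18.6% of those without. Atf3 and Gadd45g were also among the 10 highest for Amotl2, where 2 genes differed by 2-fold or more. Cells with Amotl2 had 677 CPM of Ankrd1, against 374 CPM in those without, 63.1 CPM of Dlg2, a scaffold gene, against 27.5 CPM, and 80.3 CPM of Cdon, a surface receptor gene of myogenesis, against 39.3 CPM. For Lats2 6 genes differed by 2-fold or more and none did within cluster 2.

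Over the 31 clusters of at least 50 cells in the 4 libraries the members did not share 1 pattern. The Pearson correlation of log2(CPM + 5) was 0.75 for Ccn1 with Ccn2, 0.68 for Ankrd1 with Amotl2, 0.64 for Ccn1 with Lats2, 0.63 for Ccn1 with Amotl2, 0.40 for Ccn1 with Ankrd1 and 0.27 for Ccn2 with Ankrd1. Clusters of 1 library share that library, so these values are a description. Among 7461 genes, the patterns most like Ccn1 were those of Twsg1 (0.91), a BMP-binding protein gene, Asap3 and Pax3, the paralogue of Pax7 (0.90 each), Id3 (0.90) and Spaca6 (0.89). Closest to Ccn2 were Tnxb (0.96), Prelp, Hmcn2 and Rarres2 (0.95 each) and Prex2 (0.94), of which Tnxb, Prelp and Hmcn2 encode matrix proteins. Closest to Ankrd1 were Pde4dip (0.84), Ttc9, Dmpk, Jsrp1 and Cryab (0.80), and among those closest to Amotl2 were Dlg2 (0.88), Ptpn21 and Megf10. Among those closest to Lats2 were Retreg1 (0.88), Tbc1d1, Rb1cc1 and Camk2d.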

How the data were processed

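Single-cell RNA was captured with 10x Genomics 3′ chemistry in 4 libraries, 1 per group. Deposited were matrices of raw, unnormalized UMI counts for each gene in each cell barcode, and per the submitters' processing notes STAR 2.7.10b and GRCm39 were used. The annotation and the calling of cells are not given in the sources used here. Counts of 22 symbols held by more than 1 of the 25828 features were summed.

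Cells with at least 1000 UMIs, 500 genes and at most 10% mitochondrial UMIs were kept. Scrublet (scanpy 1.11.5, expected rate 0.8% per 1000 cells) then removed 799 MPC, 47 myoblast, 297 ASC and 59 fiSC cells. Where the automatic threshold marked under 0.5% of cells, the quantile set by the expected rate replaced it. Each library was clustered by itself (2000 variable genes, 30 components, 15 neighbours, Leiden resolution 0.5). A cluster took the name of the class with the highest summed markers if at least 3 and 50% of its markers reached 20 CPM, and stayed unnamed where another class exceeded 50% of that sum, or where its depth was over 3 times lower than the library's and none of its own markers led, or where markers of another class led. That naming rule was set after seeing the data.

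The members and lists were chosen with earlier results of these data known. Log2 ratios carry 5 CPM. Besides the members, the text names list genes with at least 50 CPM that met the size rule (up to 3 highest and 3 lowest per list), the YAP, TEAD, Lats1 and angiomotin genes, the 5 genes most like each member (some are not reported here) and the 10 highest and lowest in ASC cells with a member. A few others (Fos, Hspa1a, Pax7, Lyz2 and other marker or list genes) were chosen after their values were seen. No test was run, since 1 library per group gives no replicates and cells are not replicates. Alternatives were TMM (edgeR 4.0.16) and DESeq2 1.42.0 size factors, 1 CPM in place of 5, other cell filters, doublets kept, other clusterings and thinning depths, and equal weight per cell. Library totals, sums and ratios were tested on simulated data. Counts of 0 were read against a floor of 3 counts.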

Additional observations from a re-analysis of the deposited data

How the results depend on the processing

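No paired analysis was possible because each group has 1 library, and none could be left out. Over the alternatives run, 194 of 225 all-cell member ratios and 141 of 150 progenitor-like ones kept their direction, their side of the size rule and a similar size, and the rest are given here as log2 ratios. The cause of the differences was not tested. TMM moved all ratios by −0.37 for MPC over ASC, −0.29 for myoblast over ASC and 0.26 for ASC over fiSC, and DESeq2 size factors by −0.42, −0.33 and 0.10. Under TMM, Ankrd1 in ASC over fiSC (−0.94) and Lats2 in myoblast over ASC (0.92) lost their call and Lats2 in MPC over fiSC (−1.01) gained one, with 1131 genes higher and 1580 lower in MPC against ASC (1711 and 1022 with totals). With DESeq2 size factors Lats2 was 0.89 in myoblast over ASC and −1.17 in MPC over fiSC, and for MPC against ASC 1074 genes were higher and 1666 lower. With 1 CPM added, Ccn2 was −7.53 in ASC over fiSC, −7.51 in MPC over fiSC, 3.47 in myoblast over ASC and −3.45 in MPC over myoblast, and Lats2 met the size rule in ASC (−1.09) and MPC (−1.12) over fiSC. Under the stricter cell filter (limits of 2000 UMIs, 1000 genes and a 5% mitochondrial share) Ankrd1 in MPC over ASC turned to −1.28. Ankrd1 was −2.59 in MPC over fiSC and −4.41 in MPC over myoblast. Ccn2 was then −2.65 in myoblast over fiSC, 3.06 in myoblast over ASC and −3.10 in MPC over myoblast, and Lats2 in MPC over fiSC (−1.02), Ccn1 in myoblast over ASC (1.30) and Amotl2 in MPC over myoblast (−1.39) met the size rule. With all barcodes Ankrd1 (−0.96) and Amotl2 (−0.995) in MPC over fiSC fell short of it. With equal weight per cell Lats2 fell short in progenitor-like ASC (−0.98) and MPC (−0.998) over fiSC and over all cells in myoblast over ASC (0.88). Without the fiSC cluster of highest Fos, a setting added after seeing the data, Ccn1 over all cells was −2.76 in ASC, −1.92 in myoblast and −2.69 in MPC over fiSC, Ankrd1 −0.91 in ASC and −0.83 in MPC, and Amotl2 −1.76 in ASC, 0.47 in myoblast and −0.26 in MPC. In progenitor-like cells Ccn1 was then −2.16, −1.78 and −2.41 and Amotl2 −1.37, 0.32 and −1.48 in ASC, myoblast and MPC over fiSC, and Lats2 in MPC was −0.99. Shares of cells with a transcript move with the thinning depth, and Ccn2 in MPC and ASC rests on 68 and 85 UMIs.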
